A study of Mus musculus with 8 samples.

Results

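Small nucleolar RNA host transcripts are spliced RNAs whose introns hold small nucleolar RNAs (snoRNAs) or small Cajal body RNAs (scaRNAs). The transcripts described here are Snhg20, Snhg10, Snhg3, Snhg8, Snhg11, Snhg12, Snhg5, Snhg1, Snhg6 and Gas5, 10 of the 24411 gene symbols in the count tables. They were found by symbol in every table, and were picked with their difference between the genotypes already known. Levels and fold changes of these 10 transcripts are therefore a description, and no p-value is given for them.

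The libraries were made from polyadenylated RNA of snap-frozen hearts of C57BL/6 mice, taken 1 week after transverse aortic constriction, which narrows the aorta and loads the left ventricle. In 4 mice Yin-Yang 1 (YY1, gene Yy1) had been knocked out in the heart (YY1 KO), and 4 mice served as MerCreMer controls. MerCreMer is a Cre recombinase held inactive until a ligand is given. The labels give no driver of the transgene, no ligand or dose, no age and no unoperated heart, so each difference is between genotypes under pressure load. Whole hearts were used, so cells in which the transgene is not active were sampled too.

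Each library held 14582605 to 16000455 reads assigned to genes, and 1112 to 1977 of them fell on the 10 host transcripts. Yy1 stood at 18.0, 22.3, 19.9 and 23.8 CPM (read counts scaled to the library size with edgeR's TMM factors) in YY1 KO mice 1 to 4, against 33.8, 37.1, 36.3 and 37.1 CPM in control mice 1 to 4. All 8 mice are labelled male. However, YY1 KO 1 and 4 and control 1 and 4 had 138 to 219 CPM of Xist, the RNA of the inactive X chromosome, and at most 0.134 CPM of 4 Y-linked genes summed, while the other 4 libraries had at most 0.385 CPM of Xist and 162 to 196 CPM of the Y-linked genes. This pattern goes against the labelled sex of 4 mice and is split evenly over the genotypes, so values within each pattern are given beside those of the 10 host transcripts.

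SnoRNAs guide the modification of ribosomal RNA. Box C/D snoRNAs direct 2′-O-methylation and box H/ACA snoRNAs direct pseudouridylation, while scaRNAs do the same for spliceosomal RNAs in Cajal bodies. The guide RNAs are cut out of the introns after splicing, and what remains is the spliced host transcript, which in many hosts encodes no conserved protein. Several hosts, Gas5 among them, begin with a run of pyrimidines that couples their translation to growth signals, and their spliced RNAs are degraded by nonsense-mediated decay when they are translated. The libraries select polyadenylated RNA, so they measure the host transcripts and not the mature guide RNAs.

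The guide RNAs held by each host show what separates the hosts as genes. GENCODE M21, on mm10 (GRCm38), places 33 snoRNA or scaRNA entries whole within the 10 hosts on the same strand. Most of them overlap an annotated exon of their host, where position alone does not assign a read to host or guide RNA. For Snhg1, Snhg8 and Snhg12 the annotated exons together cover the whole gene. Host counts can therefore include RNA that keeps an intron. Of the 33 entries, 18 carried box C (TGATGA) near the start with box D (CTGA) near the end, 10 ended in the ACA box, and in 5 these letters were not found. In the sequences below, which are written 5′ to 3′ on the strand of the host, capitals mark box C and box D in C/D RNAs and the ACA box in H/ACA RNAs.
Gm26083 (scaRNA of Snhg20): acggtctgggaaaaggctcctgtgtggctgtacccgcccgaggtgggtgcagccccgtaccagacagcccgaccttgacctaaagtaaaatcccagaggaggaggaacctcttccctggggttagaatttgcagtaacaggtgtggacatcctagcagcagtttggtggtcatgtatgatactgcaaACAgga
Scarna13 (scaRNA of Snhg10): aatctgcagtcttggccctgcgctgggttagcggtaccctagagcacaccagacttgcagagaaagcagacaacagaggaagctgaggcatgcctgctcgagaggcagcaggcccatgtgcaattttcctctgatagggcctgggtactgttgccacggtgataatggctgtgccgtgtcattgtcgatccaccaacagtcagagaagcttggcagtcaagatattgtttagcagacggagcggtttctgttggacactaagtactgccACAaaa
Snora73a (snoRNA of Snhg3): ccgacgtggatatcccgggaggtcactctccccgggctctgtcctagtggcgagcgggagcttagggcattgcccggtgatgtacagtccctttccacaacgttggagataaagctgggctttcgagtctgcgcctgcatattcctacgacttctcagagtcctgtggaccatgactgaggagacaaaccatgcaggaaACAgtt
Snora24 (snoRNA of Snhg8): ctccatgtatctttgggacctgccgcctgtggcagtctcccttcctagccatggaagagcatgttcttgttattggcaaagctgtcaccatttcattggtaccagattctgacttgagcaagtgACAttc
Snord50a (snoRNA of Snhg5): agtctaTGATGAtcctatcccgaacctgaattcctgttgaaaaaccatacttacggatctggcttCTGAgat
Snord50b (snoRNA of Snhg5): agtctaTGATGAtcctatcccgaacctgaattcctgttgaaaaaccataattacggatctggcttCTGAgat
Snord87 (snoRNA of Snhg6): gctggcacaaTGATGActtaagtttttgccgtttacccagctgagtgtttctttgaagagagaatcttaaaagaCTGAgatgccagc
Snord47 (snoRNA of Gas5): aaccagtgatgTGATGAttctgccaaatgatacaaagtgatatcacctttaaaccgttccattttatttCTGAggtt

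By these boxes the hosts fell into groups. Snhg20, Snhg10, Snhg3, Snhg8 and Snhg11 held RNAs with an ACA box and none with boxes C and D. Snhg1, Snhg5, Snhg6 and Gas5 held RNAs with boxes C and D, and Snhg12 held both kinds. Snhg20 (chr11:117076008-117078955, plus strand) holds the predicted scaRNA Gm26083 at chr11:117077243-117077435. Snhg10 (chr12:105030617-105032279, minus strand) holds Scarna13 at chr12:105031075-105031349. Snhg3 (chr4:132348014-132353686, minus strand) holds Snora73a and Snora73b, copies of the U17 RNA, which acts in cleavage of the ribosomal RNA precursor rather than as a modification guide. Snora73a lies at chr4:132352775-132352979. Snhg8 (chr3:123507552-123508404, minus strand) holds Snora24 at chr3:123507937-123508066.

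Gas5 (chr1:161034422-161038539, plus strand) holds 10 entries, among them Snord47 at chr1:161038082-161038158, and Snhg1 (chr19:8723475-8726443, plus strand) holds 8. Snhg12 (chr4:132308623-132311024, plus strand) holds 5 entries, Snhg5 (chr9:88521050-88522929, minus strand) holds Snord50a at chr9:88521529-88521600 and Snord50b at chr9:88521797-88521868, and Snhg6 (chr1:9941959-9944118, minus strand) holds Snord87 at chr1:9942463-9942549. Snhg11 (chr2:158375638-158386145, plus strand) holds the predicted snoRNAs Gm25187 and Gm25129. GENCODE classes Snhg11 as protein-coding and the other hosts as long non-coding or processed transcripts.

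Snhg20, Snhg10, Snhg3 and Snhg8 were higher in every YY1 KO heart than in any control heart. Their mean CPM was 5.36, 3.09, 3.01 and 1.68 times that of the controls. Snhg5, Snhg12 and Snhg11 had higher means in the YY1 KO hearts, and Gas5, Snhg1 and Snhg6 had lower ones, with overlapping values in each of these 6 cases. All 10 transcripts passed the filter on low counts. With edgeR's quasi-likelihood fit and a Benjamini-Hochberg adjusted p under 0.05, 4 of the 10 were called higher and 0 lower, and 0 were lower at an unadjusted p under 0.05, in DESeq2 or in limma-voom. Over the 13506 genes tested, 21.6% were called higher and 17.3% lower (38.9% in all), and the groups did not overlap for 38.3%, with YY1 KO higher for 21.8% and lower for 16.5%. The members were chosen on this contrast, so nothing is read from their count. Between the 2 YY1 KO and 2 control libraries with Y-linked reads Snhg20 and Snhg3 alone were called. Between those with Xist 0 of the 10 were called in edgeR, where 0 of all genes passed while 3451 had an unadjusted p under 0.05. In whole tissue, fewer cells of a type and less RNA per cell cannot be told apart.

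**Figure D1:**
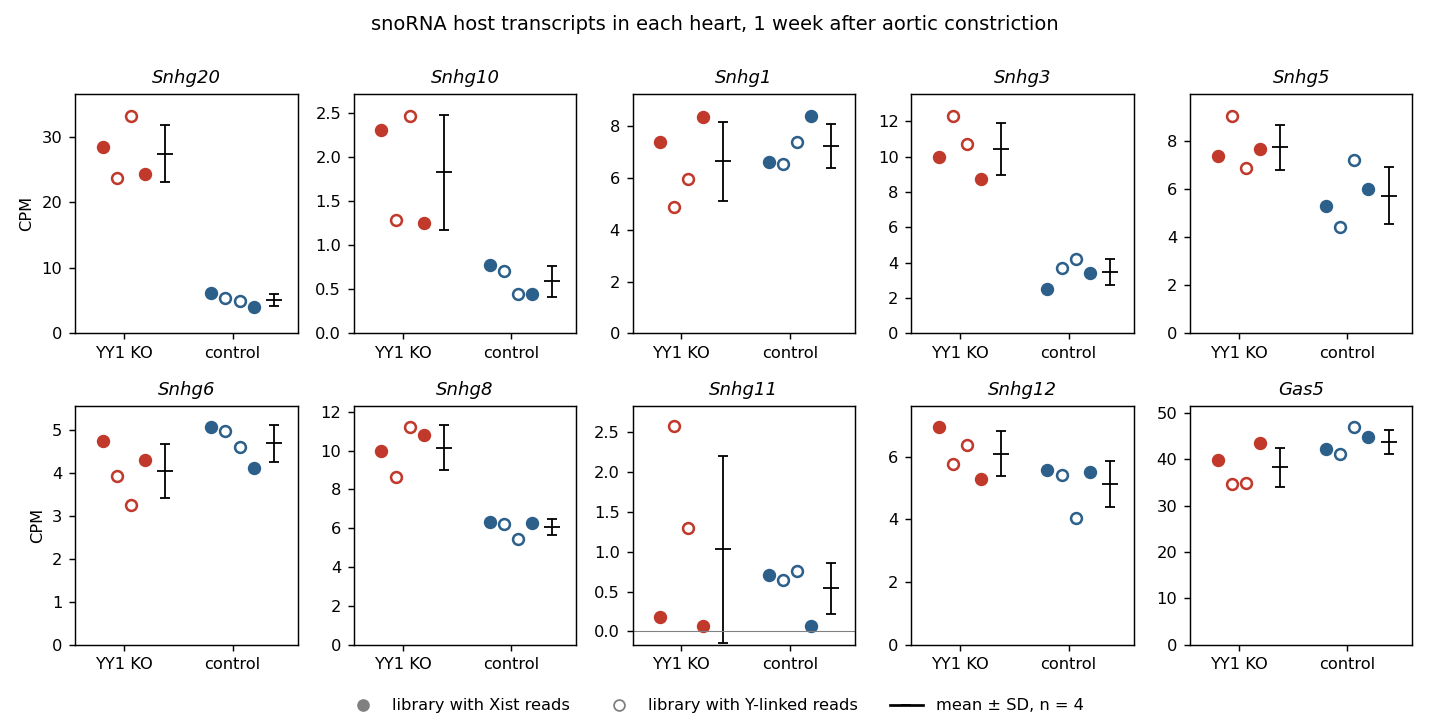
CPM (vertical axis, from 0 except for Snhg11, whose SD bar runs below 0) of the 10 host transcripts in the 4 YY1 KO and 4 control hearts. Each point is 1 library, filled where Xist reads and open where Y-linked reads were found, and bars are mean ± SD. Snhg20, Snhg10, Snhg3 and Snhg8 show no overlap between genotypes, and in the other 6 panels the points overlap.

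Snhg20 is a long non-coding host studied mainly in human tumours. It stood at 28.4, 23.8, 33.2 and 24.4 CPM in YY1 KO mice 1 to 4, against 6.19, 5.34, 4.92 and 4.04 CPM in control mice 1 to 4. The lowest YY1 KO heart lay far above the highest control heart. The means were 27.46 ± 4.365 CPM in YY1 KO hearts and 5.124 ± 0.893 CPM in control hearts (SD, n = 4 each), and the log2 fold change was 2.42 ± 0.16 (SE). It was 2.37 ± 0.27 between the 2 YY1 KO and 2 control libraries with Xist and 2.46 ± 0.22 between those with Y-linked reads, so the size was much the same in both patterns. Of the strand-resolved reads, 0.834% were on the opposite strand.

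Snhg10, the other host of a scaRNA, was sparse. It had 39, 19, 38 and 20 reads in YY1 KO mice 1 to 4 and 11, 10, 7 and 7 reads in control mice 1 to 4. That is 2.31, 1.29, 2.47 and 1.25 CPM in YY1 KO hearts, against 0.774, 0.711, 0.442 and 0.442 CPM in control hearts. YY1 KO 2 and 4 stood lower than YY1 KO 1 and 3 but still above every control. The log2 fold change was 1.63 ± 0.35 (SE), and it was 1.55 ± 0.55 in the libraries with Xist and 1.69 ± 0.53 in those with Y-linked reads.

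Snhg3, the host of the U17 RNAs, stood at 10, 12.3, 10.7 and 8.72 CPM in YY1 KO mice 1 to 4, against 2.53, 3.70, 4.23 and 3.41 CPM in control mice 1 to 4. The means were 10.43 ± 1.483 CPM in YY1 KO hearts and 3.469 ± 0.709 CPM in control hearts (SD, n = 4 each), with a log2 fold change of 1.58 ± 0.19 (SE). The gap between the groups was wider than the range within either. The log2 fold change was 1.65 ± 0.28 in the libraries with Xist and 1.51 ± 0.23 in those with Y-linked reads.

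Snhg8, the host of the H/ACA RNA Snora24, differed less. It stood at 10, 8.62, 11.2 and 10.8 CPM in YY1 KO mice 1 to 4, against 6.33, 6.19, 5.43 and 6.26 CPM in control mice 1 to 4. The groups did not overlap, and the log2 fold change was 0.75 ± 0.13 (SE). Control 3 was the low value of its group. Within the patterns the log2 fold change was 0.72 ± 0.21 with Xist and 0.75 ± 0.24 with Y-linked reads.

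Snhg11, the H/ACA host best known from mouse brain, varied more within the genotypes than between them. It had 3, 38, 20 and 1 reads in YY1 KO mice 1 to 4, against 10, 9, 12 and 1 reads in control mice 1 to 4. In CPM these are 0.178, 2.58, 1.30 and 0.0623 in YY1 KO hearts and 0.704, 0.640, 0.757 and 0.0632 in control hearts. The 2 YY1 KO hearts with Xist were low, and the 2 with Y-linked reads were above all controls. The log2 fold change of 0.90 ± 0.94 (SE) became −0.091 without YY1 KO 2, and it was 1.44 ± 0.50 in the libraries with Y-linked reads. In those with Xist Snhg11 was left out by the filter. Of 7 neuron markers, Snap25, Rbfox3 and Syt1 had at most 2 reads in any library. The marker sum was 16.8 to 35.9 CPM in YY1 KO hearts and 7.97 to 14.6 CPM in control hearts, mostly from the tubulin gene Tubb3 and from Stmn2. Tubb3 stood at 29.4, 5.70, 14.7 and 17.0 CPM in YY1 KO mice 1 to 4, against 1.55, 2.21, 6.25 and 4.30 CPM in control mice 1 to 4. Stmn2 stood at 5.75, 10.3, 8.05 and 8.35 CPM in YY1 KO mice 1 to 4, against 6.33, 5.41, 7.76 and 8.03 CPM in control mice 1 to 4. Among the YY1 KO hearts, YY1 KO 2, where Snhg11 was highest, thus had the lowest Tubb3 and the highest Stmn2. The part of neurons in the Snhg11 values was not tested.

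Snhg12 holds RNAs of both classes. It stood at 6.94, 5.77, 6.36 and 5.30 CPM in YY1 KO mice 1 to 4, against 5.56, 5.41, 4.04 and 5.50 CPM in control mice 1 to 4. The groups overlapped and control 3 was the lowest of the 8. The log2 fold change was 0.25 ± 0.16 (SE), and it was 0.15 ± 0.27 in the libraries with Xist and 0.34 ± 0.28 in those with Y-linked reads.

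Gas5 was the most abundant of the hosts by reads. It is known for accumulating in growth-arrested cells and for binding the glucocorticoid receptor. It stood at 39.9, 34.7, 34.9 and 43.4 CPM in YY1 KO mice 1 to 4, against 42.2, 41.2, 46.9 and 44.8 CPM in control mice 1 to 4. Most YY1 KO values were below the controls, but YY1 KO 4 was above control 1 and control 2. The means were 38.22 ± 4.209 CPM in YY1 KO hearts and 43.78 ± 2.576 CPM in control hearts (SD, n = 4 each), and the log2 fold change was −0.20 ± 0.096 (SE). In the libraries with Y-linked reads it was −0.36 ± 0.13, with 34.7 and 34.9 CPM in YY1 KO hearts below 41.2 and 46.9 CPM in control hearts. In the libraries with Xist it was −0.065 ± 0.13, and the values overlapped.

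The other C/D hosts showed small differences of mixed sign. Snhg1, the gene in which a host with guide RNAs in its introns and no conserved coding exon was first described, stood at 7.41, 4.89, 5.97 and 8.35 CPM in YY1 KO mice 1 to 4, against 6.62, 6.55, 7.39 and 8.40 CPM in control mice 1 to 4. Its log2 fold change was −0.12 ± 0.19 (SE), and it was −0.38 ± 0.25 in the libraries with Y-linked reads and 0.067 ± 0.24 in those with Xist. Snhg6, the host of Snord87, stood at 4.74, 3.94, 3.25 and 4.30 CPM in YY1 KO mice 1 to 4, against 5.07, 4.98, 4.61 and 4.11 CPM in control mice 1 to 4. For both hosts the YY1 KO hearts with Y-linked reads were the lowest of the 8. Snhg5, the host of the Snord50 pair, stood at 7.35, 9.03, 6.88 and 7.66 CPM in YY1 KO mice 1 to 4, against 5.28, 4.41, 7.20 and 6.00 CPM in control mice 1 to 4. The log2 fold change was −0.21 ± 0.17 for Snhg6 and 0.43 ± 0.18 for Snhg5 (SE), and only control 3 lay within the YY1 KO range of Snhg5. Within the patterns Snhg6 was at −0.020 ± 0.28 with Xist and −0.44 ± 0.29 with Y-linked reads. Snhg5 was at 0.41 ± 0.23 with Xist and 0.43 ± 0.31 with Y-linked reads.

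Set by the kind of guide RNA, 4 of the 5 hosts that held ACA-box RNAs alone were called higher, beside 21.6% of all genes. The log2 fold changes of the 5 hosts were 0.75 to 2.42. Among them Snhg11, at 0.90 ± 0.94 (SE), became −0.091 without YY1 KO 2. Of the 4 C/D hosts 0 were called, beside 38.9% of all genes called in either direction, with log2 fold changes of −0.21 to 0.43. This grouping was noticed with the values in view, rests on few hosts picked on this contrast, and was not tested. The other non-coding hosts described below were not sorted by the kind of their guide RNAs. Of those, 5 of 7 tested were called higher, so a split by kind cannot be read beyond the 10 hosts. The median log2 fold change of the 10 transcripts was 0.59 and that of all 13506 genes 0.013. The median of the 10 was 0.31 without YY1 KO 2 and 0.35 in limma-voom. The plot of all tested genes by level and fold change shows where each host lies.

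**Figure D2:**
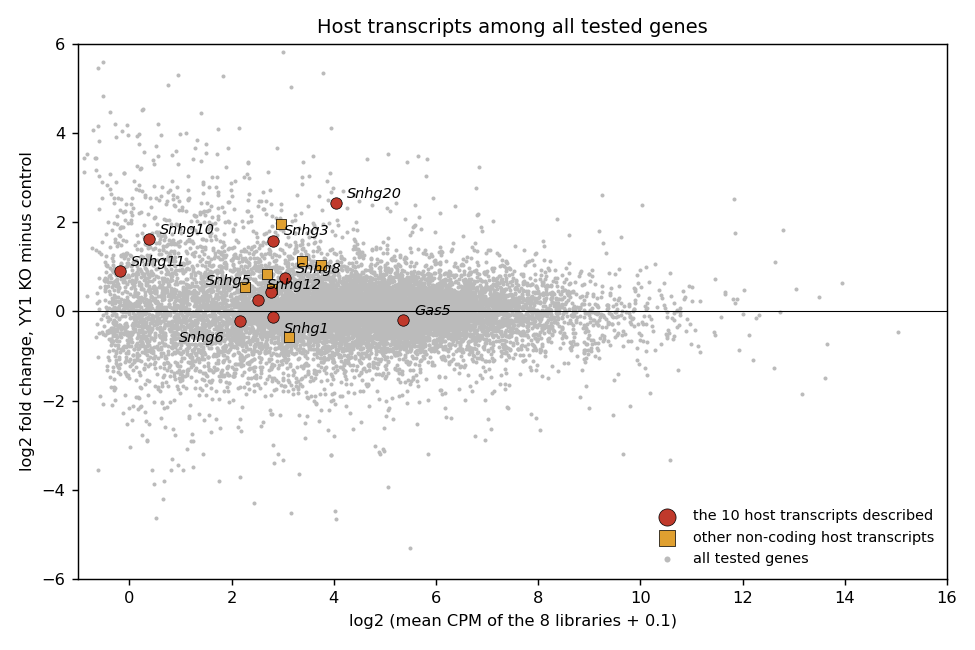
Log2 fold change, YY1 KO minus control (vertical axis), against log2 of the mean CPM of the 8 libraries plus 0.1 (horizontal axis). Red circles are the 10 host transcripts, orange squares the 7 other non-coding hosts that were tested, and grey dots all 13506 tested genes. Snhg20 lies at 2.42 and Gas5 at −0.20, while the median of all genes is 0.013.

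Divided by the length of 1 spliced transcript, the levels can be set side by side between hosts. In YY1 KO hearts Gas5 stood highest at 57.5 ± 6.33 CPM per kb and Snhg20 next at 45.8 ± 7.27 CPM per kb (SD, n = 4), and these SD intervals overlap. Snhg3 at 23.9 ± 3.39 and Snhg8 at 19.2 ± 2.17 CPM per kb followed and also overlap. Snhg1 at 11 ± 2.53, Snhg6 at 10.1 ± 1.58 and Snhg12 at 10.1 ± 1.18 CPM per kb cannot be ordered, and Snhg5 at 7.70 ± 0.917 CPM per kb overlaps with Snhg1 and Snhg6. Snhg10 at 3.47 ± 1.24 and Snhg11 at 0.176 ± 0.200 CPM per kb came last. In control hearts Gas5 stood at 65.8 ± 3.87 CPM per kb, and Snhg1 at 12 ± 1.43, Snhg6 at 11.7 ± 1.09 and Snhg8 at 11.5 ± 0.795 CPM per kb came next without a clear order. Snhg20 at 8.54 ± 1.49, Snhg12 at 8.46 ± 1.20 and Snhg3 at 7.94 ± 1.62 CPM per kb overlapped in control hearts. Snhg5 at 5.70 ± 1.17 CPM per kb overlapped with Snhg3, and Snhg10 at 1.12 ± 0.333 and Snhg11 at 0.0923 ± 0.0550 CPM per kb were last. These orders go by overlap of SD intervals between mice, and the hosts were not compared heart by heart. The order between hosts also depends on the length assumed. All annotated exons of each gene were a length tried after the data were seen. On it, Snhg8 at 11.9 ± 1.34, Snhg3 at 10.6 ± 1.5, Gas5 at 10.2 ± 1.12 and Snhg20 at 9.82 ± 1.56 CPM per kb had overlapping SD intervals in YY1 KO hearts. In control hearts Gas5 stood at 11.6 ± 0.685 CPM per kb on that length, and Snhg3 at 3.52 ± 0.719 CPM per kb was above Snhg1 at 2.44 ± 0.292 CPM per kb.

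The make-up of the host reads differed between the genotypes. The 10 transcripts summed to 106.9 to 117.3 CPM in YY1 KO hearts and 79.11 to 85.91 CPM in control hearts. Gas5 gave 30 to 38.0% of the host reads in YY1 KO hearts and 51.9 to 54.6% in control hearts, and Snhg20 gave 21.3 to 28.6% in YY1 KO hearts and 4.87 to 7.62% in control hearts. For every 100 Gas5 reads there were 71.3, 68.7, 95.2 and 56.1 Snhg20 reads in YY1 KO mice 1 to 4, against 14.7, 13, 10.5 and 9.03 in control mice 1 to 4. This ratio within a library needs no scaling factor, and its groups did not overlap. Both hosts were picked with the contrast known, so the gap is a description and no added support for a difference.

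Between mice of the same genotype the hosts varied in different directions. With the group means removed, Pearson's r of log2 CPM over the 8 libraries was positive for 21 and negative for 24 of the 45 pairs of hosts. The extremes were −0.955 for Snhg1 with Snhg11 and 0.889 for Snhg1 with Gas5, and Snhg20 with Snhg10 had 0.878. Snhg11 had only 1 to 38 reads per library. Centring on the genotype means does not remove differences between libraries with Xist and those with Y-linked reads. Of all tested genes, those most like Snhg20 by this measure were Itpa (0.988), an enzyme that clears inosine triphosphate, Abhd3 (0.985), 4632404H12Rik (0.967), 2210016F16Rik (0.965) and 3830406C13Rik (0.964). Those most like Gas5 were the nuclear pore gene Nup188 (0.992), the heparan sulphate sulphatase gene Sulf2 (0.992), Nav3 (0.989), Rasa4 (0.988) and 4933427D14Rik (0.985). With 8 libraries and 13506 genes, values of this size are a description of these mice, and the points share the same libraries and depths.

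**Figure D3:**
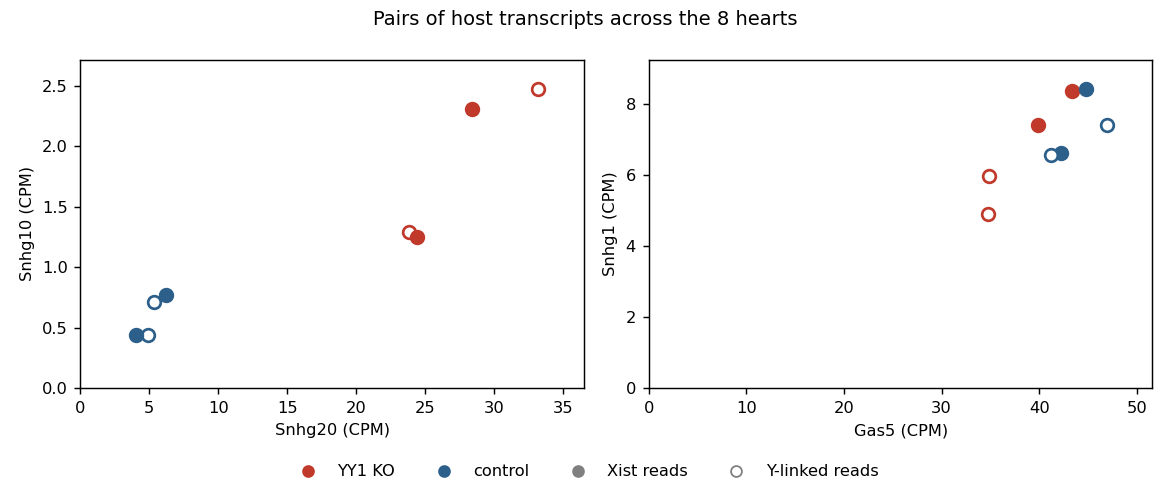
CPM of Snhg10 against Snhg20 (left) and of Snhg1 against Gas5 (right) in each of the 8 hearts, YY1 KO in red and control in blue, filled where Xist reads and open where Y-linked reads were found. The genotypes separate on the left, whereas on the right they overlap and the 2 YY1 KO hearts with Y-linked reads lie lowest.

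YY1 binds a core of CCAT or its complement ATGG, often at the start of genes, so the promoters were read for its letters. RefSeq (GRCm38.p6) gave windows of 250 bases before to 50 bases after the start for 9 of the 10 hosts, 10 windows in all since Gas5 has 2. On either strand AANATGGCG was in 0 of the 10 windows and in 2.38% of the 32851 windows of all genes. ATGGCGG, which overlaps it, was in 1 window, of Gas5, and in 4.05% of all windows. After the windows had been read, the shorter AANATGGC was searched and found in 1 window, of Snhg3 (6.05% of all windows), and ATGGCG in 4, of Gas5, Snhg11, Snhg12 and Snhg10 (8.93% of all windows). TGATGNAA, a motif of amino acid response elements (3.97% of all windows), and the E-box CACGTG (7.15%) were in 0 of the 10. The Snhg20 window held none of these longer strings, but it does hold the bare core ATGG. How often the bare core occurs over all windows was not counted.

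Shown are the windows of Gas5, Snhg3, Snhg10 and Snhg20. Snhg20 had the largest difference, Snhg3 and Snhg10 hold longer strings among the hosts called higher, and Gas5 holds the match to ATGGCGG. The windows are written 5′ to 3′ on the strand of the host, with the letters of AANATGGC, ATGGCG and ATGGCGG or their complement in capitals. The Gas5 window is chr1:161034916-161035215 (plus strand), that of Snhg3 chr4:132353637-132353936 (minus strand), that of Snhg10 chr12:105032230-105032529 (minus strand) and that of Snhg20 chr11:117076533-117076832 (plus strand).
Gas5 promoter: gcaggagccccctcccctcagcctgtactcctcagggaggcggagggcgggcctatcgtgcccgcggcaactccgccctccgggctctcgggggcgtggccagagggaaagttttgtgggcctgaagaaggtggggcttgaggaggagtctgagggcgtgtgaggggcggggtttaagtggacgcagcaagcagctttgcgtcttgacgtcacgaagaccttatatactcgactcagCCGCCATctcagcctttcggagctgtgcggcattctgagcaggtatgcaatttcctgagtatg
Snhg3 promoter: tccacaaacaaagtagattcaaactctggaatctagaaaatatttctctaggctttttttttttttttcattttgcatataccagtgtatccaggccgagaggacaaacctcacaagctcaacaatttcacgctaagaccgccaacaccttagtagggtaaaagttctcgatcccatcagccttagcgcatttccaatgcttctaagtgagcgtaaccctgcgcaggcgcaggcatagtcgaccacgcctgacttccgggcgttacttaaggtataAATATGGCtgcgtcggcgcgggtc
Snhg10 promoter: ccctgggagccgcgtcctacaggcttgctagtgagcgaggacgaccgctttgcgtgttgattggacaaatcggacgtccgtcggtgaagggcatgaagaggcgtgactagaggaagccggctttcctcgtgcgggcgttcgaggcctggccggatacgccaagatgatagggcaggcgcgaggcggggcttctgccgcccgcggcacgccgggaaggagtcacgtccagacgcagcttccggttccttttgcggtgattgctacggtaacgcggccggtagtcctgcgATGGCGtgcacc
Snhg20 promoter: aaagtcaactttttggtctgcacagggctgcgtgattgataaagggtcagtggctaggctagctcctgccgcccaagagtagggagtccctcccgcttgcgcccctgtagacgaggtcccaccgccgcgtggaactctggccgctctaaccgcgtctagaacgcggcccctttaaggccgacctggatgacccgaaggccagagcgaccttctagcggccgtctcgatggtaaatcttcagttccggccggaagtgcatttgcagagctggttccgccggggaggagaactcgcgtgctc

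In the Gas5 window the match lies just before the RefSeq start on the opposite strand, and in the Snhg3 and Snhg10 windows it lies at 26 and 38 bases after the start. The GENCODE start minus the RefSeq start was −744 bases for the Gas5 window shown and −775 bases for Snhg20. Both RefSeq starts thus lie well inside the GENCODE gene. The starts were the same for Snhg3 and Snhg10, and for the other windows they differed by −179 to −12 bases. A C at the start followed by at least 4 pyrimidines, as in pyrimidine-tract messengers, was found in the windows of Gas5 and Snhg8 and in 2.51% of all windows. Hosts with and without AANATGGC, ATGGCG or ATGGCGG were thus found both among those called and among those not called. A match is a description and not a site of binding.

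Some hosts lie beside coding genes, which were tested in the same fit. Glrx5, a mitochondrial glutaredoxin of iron-sulphur cluster assembly, starts 409 bases from Snhg10 on the opposite strand. It stood at 51.2 ± 3.18 CPM in YY1 KO hearts and 67.8 ± 7.65 CPM in control hearts (SD, n = 4 each; log2 fold change −0.40 ± 0.097, edgeR adjusted p = 0.0105), lower where Snhg10 was higher. Slc3a2, the heavy chain of several amino acid transporters, starts 106 bases from Snhg1 on the opposite strand. It stood at 101 ± 12.5 CPM in YY1 KO hearts and 64.0 ± 9.21 CPM in control hearts (log2 fold change 0.66 ± 0.13, edgeR adjusted p = 0.00417), while Snhg1 was not called.

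Zbtb37, a zinc finger gene, overlaps Gas5 by 428 bases on the opposite strand. It stood at 3.00 ± 0.45 CPM in YY1 KO hearts and 1.69 ± 0.418 CPM in control hearts (log2 fold change 0.83 ± 0.23, edgeR adjusted p = 0.0206). The adjusted p was 0.0593 without YY1 KO 1, 0.0638 without control 2 and 0.0607 without control 4. With counts on the annotated strand alone, the log2 fold change was 0.82 for Zbtb37 and −0.20 for Gas5. Rcc1, the nucleotide exchange factor of Ran, starts 81 bases from Snhg3 on the same strand and overlaps nearly all of it. It stood at 11.4 ± 1.90 CPM in YY1 KO hearts and 14 ± 3.79 CPM in control hearts, a log2 fold change of −0.30 ± 0.21 (edgeR adjusted p = 0.279). This overlap is of whole gene spans, and the exons shared by both genes were not counted. Reads on shared exons cannot be assigned to either gene by position alone. How far this affects both levels was not tested, so they are taken with caution. Mir6516 within Snhg20, Mir3069 within Snhg10 and Mcmdc2 beside Snhg6 had too few reads to test.

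**Figure D4:**
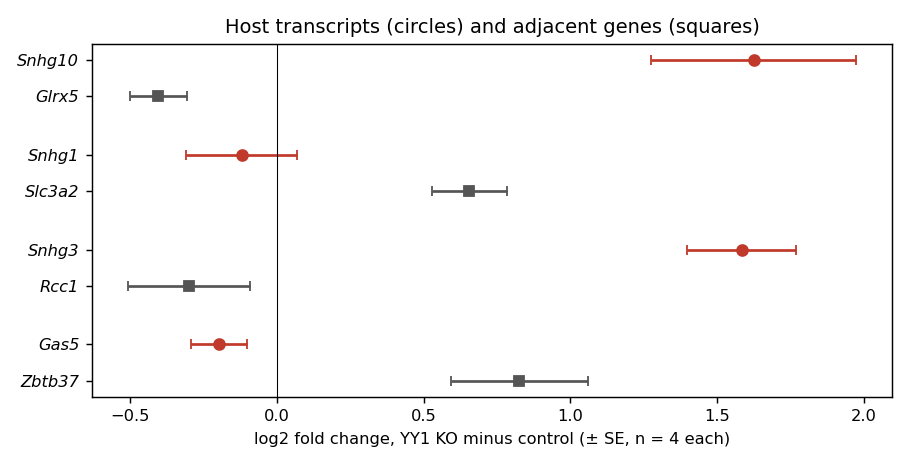
Log2 fold change, YY1 KO minus control, with its SE (n = 4 hearts each) for 4 host transcripts (red circles) and the adjacent coding gene of each (grey squares). Glrx5 lies at −0.40 under Snhg10 at 1.63, and Slc3a2 at 0.66 under Snhg1 at −0.12.

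Other non-coding hosts, which were not among the 10, were tested in the same fit. Of the 8 found by symbol, 7 passed the filter, and 5 rose and 0 fell, with a median log2 fold change of 0.84 against 0.013 for all genes and 21.6% of all genes called higher. None of them was lower at an unadjusted p under 0.05, in DESeq2 or in limma-voom. Dancr, a long non-coding RNA known for holding back differentiation of progenitor cells, stood at 13, 11.1, 12.3 and 12.2 CPM in YY1 KO mice 1 to 4, against 3.59, 2.56, 3.85 and 2.46 CPM in control mice 1 to 4. Its groups were far apart, with means of 12.2 ± 0.792 CPM in YY1 KO hearts and 3.12 ± 0.706 CPM in control hearts (SD, n = 4 each; log2 fold change 1.96 ± 0.17, edgeR adjusted p = 0.000219).

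Snhg4 stood at 14.1 ± 2.49 CPM in YY1 KO hearts and 6.46 ± 0.614 CPM in control hearts (SD, n = 4 each; log2 fold change 1.12 ± 0.15, edgeR adjusted p = 0.000967). Snhg18 stood at 17.9 ± 1.18 CPM in YY1 KO hearts and 8.61 ± 2.53 CPM in control hearts (log2 fold change 1.05 ± 0.20, edgeR adjusted p = 0.00377). Neither overlapped between the genotypes. Snhg14, the long host of the imprinted Prader-Willi region, stood at 8.20 ± 1.91 CPM in YY1 KO hearts and 4.59 ± 1.05 CPM in control hearts (log2 fold change 0.84 ± 0.23, edgeR adjusted p = 0.0175). Its groups overlapped, and the adjusted p was 0.0543 without YY1 KO 3. The log2 fold change of Snhg14 was 1.27 ± 0.24 in the libraries with Y-linked reads and 0.37 ± 0.31 in those with Xist. Snhg7 rose by 0.55 ± 0.18 on the log2 scale (edgeR adjusted p = 0.0405). Its call was lost in 6 of the 8 fits that left out 1 library, those without YY1 KO 1 or 4 or without any of control 1 to 4 (adjusted p = 0.053 to 0.0975). It was also lost without a filter on low counts (adjusted p = 0.0585), in the libraries with Xist (0.199) and in those with Y-linked reads (0.446). Snhg17 at 0.49 ± 0.26 (adjusted p = 0.167) and the imprinted Rian at −0.58 ± 0.39 (adjusted p = 0.260) did not pass in edgeR. This list was drawn up with results of these data known.

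**Figure D5:**
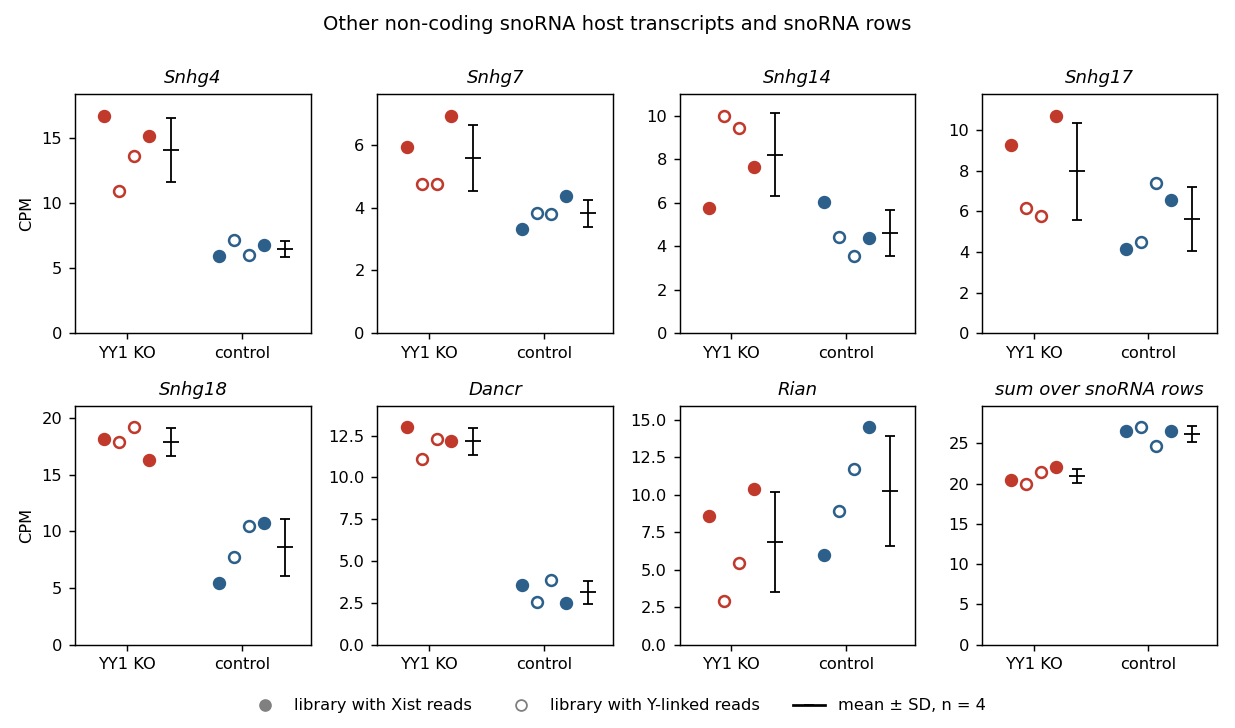
CPM (vertical axis, from 0) of 7 other non-coding hosts and of the sum over all annotated snoRNA rows in the 4 YY1 KO and 4 control hearts, filled where Xist reads and open where Y-linked reads were found, with mean ± SD. Dancr, Snhg4, Snhg18 and Snhg7 do not overlap between genotypes, and the snoRNA sum is lower in every YY1 KO heart.

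Coding genes that span a whole annotated snoRNA on the same strand were called about as often as all genes. Whether the snoRNA lies in an intron was not checked, and some of these genes share a snoRNA. Rcc1 is among them, with the Snora73 pair that also lies in Snhg3. Of 225 tested 43 rose and 37 fell, which is 19.1 and 16.4% beside 21.6 and 17.3% of all genes, and their median log2 fold change was −0.014. The 4 with the smallest p each hold 1 predicted snoRNA. Piwil2, a Piwi protein of the germline, stood at 11.3 ± 2.78 CPM in YY1 KO hearts and 2.13 ± 0.656 CPM in control hearts (log2 fold change 2.40 ± 0.26, edgeR adjusted p = 0.000397), and Uchl5, a deubiquitinase, rose by 1.31 ± 0.15 (adjusted p = 0.000516). Chd3, a chromatin remodeller, stood at 26.8 ± 2.55 CPM in YY1 KO hearts and 51.9 ± 3.91 CPM in control hearts (log2 fold change −0.95 ± 0.096, adjusted p = 0.000296). Dkc1, the pseudouridine synthase of H/ACA particles, is itself such a host. It stood at 9.55, 8.48, 8.31 and 13.7 CPM in YY1 KO mice 1 to 4, against 30.4, 26.4, 26.4 and 25.6 CPM in control mice 1 to 4. The groups were far apart (log2 fold change −1.44 ± 0.16, edgeR adjusted p = 0.000461).

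Among genes for the proteins of snoRNA particles and their assembly, 6 of 19 rose and 4 fell (31.6 and 21.1%). Of all genes 21.6% rose and 17.3% fell, and the median log2 fold change of the list was 0.15. The assembly factors Pih1d1 (0.62 ± 0.082, edgeR adjusted p = 0.000853), Znhit6 (0.57 ± 0.098, adjusted p = 0.00239) and the ATPase gene Ruvbl1 (0.48 ± 0.11, adjusted p = 0.00810) rose. Those that fell were Dkc1, Nhp2l1, Ruvbl2 and Rrp9, of which the last 3 are named after their values were seen. With library size as the scaling, Dkc1 was the only one of the list called lower. Without control 2 this was so as well.

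Genes that trim or degrade intron RNA did not move one way. Of 21 tested 7 rose and 4 fell (33.3 and 19%, beside 21.6 and 17.3% of all genes), with a median log2 fold change of 0.19. The exosome subunit genes differed among themselves, since Exosc5 rose by 1.03 ± 0.11 (edgeR adjusted p = 0.000364) and Exosc9 by 0.64 ± 0.099 (adjusted p = 0.00144), while Exosc2 fell by 1.43 on the log2 scale, to 4.91 ± 0.998 CPM in YY1 KO hearts against 13.3 ± 1.35 CPM in control hearts (adjusted p = 0.000511). Parn, the nuclease that matures the ends of H/ACA RNAs, rose by 0.83 ± 0.093 (adjusted p = 0.000461).

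Genes of nonsense-mediated decay, the route that degrades several spliced hosts, were also split. Of 19 tested 4 rose and 4 fell (21.1% each, beside 21.6 and 17.3% of all genes), with a median log2 fold change of 0.043. Upf3a stood at 39.7 ± 4.58 CPM in YY1 KO hearts and 20.0 ± 2.70 CPM in control hearts (log2 fold change 0.99 ± 0.12, edgeR adjusted p = 0.000640). Rnps1, an exon junction factor (0.44 ± 0.069, adjusted p = 0.00160), and the endonuclease gene Smg6 (0.64 ± 0.12, adjusted p = 0.00280) rose, and Nbas fell (−0.54 ± 0.11, adjusted p = 0.00479).

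Of 15 genes of RNA polymerase I and its initiation factors 2 rose and 1 fell (13.3 and 6.67%). Of all genes 21.6% rose and 17.3% fell, and the median log2 fold change of the list was −0.030. The subunit gene Polr1e rose (0.67 ± 0.10, edgeR adjusted p = 0.00135), and Polr1c, which RNA polymerase III shares, fell (−0.46 ± 0.099, adjusted p = 0.00629). Ubtf, the upstream binding factor of ribosomal genes, rose by 0.27 ± 0.091 (adjusted p = 0.0397). Its call was lost with RLE scaling (adjusted p = 0.0714), and also without YY1 KO 2 or 3 or without any of control 1 to 4 (adjusted p = 0.0604 to 0.102).

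The guide RNAs themselves were barely captured. Of 129 rows for annotated snoRNAs 97 had any read and 6 passed the filter. Among the RNAs held by the 10 hosts, Snora16a of Snhg12 had 72 reads over the 8 libraries, Snord22 of Snhg1 had 23 and Snord99 of Snhg12 had 18, while Scarna13 had 9 and Snora24 had 0. Snora16a had 11, 10, 6 and 8 reads in YY1 KO mice 1 to 4, against 9, 10, 10 and 8 reads in control mice 1 to 4, so no difference was detectable at this depth. Snora24 overlaps an annotated exon of Snhg8, and its 0 reads in each library allow no statement on its mature form.

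Summed over the snoRNA rows, the level was 20.4, 20.0, 21.4 and 22.0 CPM in YY1 KO mice 1 to 4, against 26.5, 27.0, 24.7 and 26.5 CPM in control mice 1 to 4. Every YY1 KO heart was below every control heart. The libraries select polyadenylated RNA, so this sum is not a measure of the mature guide RNAs. The means were 20.9 ± 0.898 CPM in YY1 KO hearts and 26.2 ± 1.04 CPM in control hearts (SD, n = 4 each), and an exact permutation test, two-sided, gave p = 0.0286, the smallest that the 70 assignments can give. Without the 3 rows with most reads (Mir1839, which GENCODE classes as a snoRNA, Snord96a and Snora28), the difference was −2.16 CPM with an exact permutation p of 0.0571. Of the 6 rows tested singly 1 passed, Snord91a, named after its value was seen, at 1.42 ± 0.364 CPM in YY1 KO hearts and 0.849 ± 0.0702 CPM in control hearts (log2 fold change 0.73 ± 0.26, edgeR adjusted p = 0.0477).

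Cell type markers moved with the genotype beside these results. The sum of 8 cardiomyocyte markers was 50100 to 71700 CPM in YY1 KO hearts and 75700 to 102000 CPM in control hearts, with 3 of the 8 genes called lower (Actc1, Myl2 and Myl3). The sum of 7 endothelial markers was 670 to 888 CPM in YY1 KO hearts and 919 to 1380 CPM in control hearts, with 5 called lower, and that of 6 mural markers was 621 to 802 CPM in YY1 KO hearts and 866 to 1210 CPM in control hearts, with 3 called lower. These 3 sums did not overlap between the genotypes. Over all genes, 21.6% were called higher and 17.3% lower. The fibroblast sum (7 genes, 1 called higher) was 1330 to 2860 CPM in YY1 KO hearts and 983 to 2370 CPM in control hearts, and the macrophage sum (7 genes, 0 called) was 238 to 356 CPM in YY1 KO hearts and 218 to 386 CPM in control hearts. Lymphocyte markers summed to 0.974 to 3.26 CPM in YY1 KO hearts and 1.92 to 4.92 CPM in control hearts, and erythroid markers, 4 of 6 at 0 in all libraries, to 15.7 to 90.3 CPM in YY1 KO hearts and 15.8 to 33.2 CPM in control hearts. The part of cell make-up in the host transcripts was not tested.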

How the data were processed

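Raw read counts per gene symbol were deposited, 1 table for each of 4 YY1 KO and 4 MerCreMer control hearts. The submitters' processing notes name Trimmomatic, STAR and mm10; settings, versions and the annotation behind the counts are not stated there. Counts irrespective of strand were used, and the deposited counts per strand served as a check (2.66 to 5.31% of stranded gene reads opposite to the annotation). Reads assigned to no gene (33.0 to 38.9%) stayed out of library sizes.

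Filtering with edgeR's filterByExpr (at least 10 reads in at least 4 libraries) left 13506 of 24411 symbols with 99.9% of gene reads. Genotypes were compared with edgeR 4.0.16 in R 4.3.3, using TMM factors, a robust quasi-likelihood fit with group as its single term, Benjamini-Hochberg adjustment over all 13506 genes and a threshold of 0.05. A positive log2 fold change means higher in YY1 KO. The test was checked on simulated counts. Positions and hosted RNAs came from GENCODE M21, as did spliced lengths (the transcript linked to a RefSeq entry for 8 hosts, the longest basic transcript for Snhg8 and Gas5), and promoter windows from RefSeq GRCm38.p6. Xist and Y-linked levels were computed from gene reads without TMM.

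The members and all lists were chosen with earlier results of these data known. Named genes were Yy1, the members, their neighbours (overlap, or a start within 5000 bases), up to 4 genes with the smallest p among those called in each list, and the 5 genes most like Snhg20 and Gas5. Libraries of a group differed by 14.6 to 96.7 chi-square units per degree of freedom, far beyond counting noise, so each counted once. Labels number separate mice, so the spread includes that between animals. The alternatives were RLE, upper quartile and library size scaling, DESeq2 1.42.0, voom in limma 3.58.1, 2 other filters, counts on the annotated strand, a block for the replicate number, a term for Xist, and leaving out each library. Fits within the libraries of each sex-linked pattern, and levels per kb over all annotated exons, were added after the data were seen. A gene among the coding hosts is not reported here by name.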

Additional observations from a re-analysis of the deposited data

Results flagged for a closer look

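In 6 of 76 groups of 4 values examined, 1 library stood apart from the other 3, where chance gives about 1 in 20 groups. Control 3 had 5.43 CPM of Snhg8, and the other control hearts had 6.19 to 6.33 CPM. It also had 4.04 CPM of Snhg12, where the others had 5.41 to 5.56 CPM, so the same heart was low for both hosts. Control 4 had 0.0632 CPM of Snhg11, which is 1 read, and the others had 0.640 to 0.757 CPM. For Chd3, control 3 had 46.1 CPM and the others 53.3 to 54.3 CPM. For Dkc1, control 1 had 30.4 CPM and the others 25.6 to 26.4 CPM. YY1 KO 4 had 55.9 CPM of Glrx5, and the other YY1 KO hearts had 49.2 to 49.9 CPM.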

How the results depend on the processing

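Snhg20, Snhg10, Snhg3 and Snhg8 stayed called under every scaling, tool, filter, strand, block and Xist setting and without any single library, and fell to 2 hosts called higher (Snhg20 and Snhg3) in the libraries with Y-linked reads and 0 in those with Xist. Snhg5 joined them without control 3. The hosts were picked with this contrast known, so their calls under other settings are a description and no added support. The median of all log2 fold changes was 0.0127 with TMM, −0.0162 with RLE and 0.0723 with library size alone, and the share of calls that were higher was 55.5, 51.3 and 63.6% in that order.

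The median log2 fold change of the 10 hosts (0.59) was 0.35 in limma-voom, 0.43 with the stricter filter, which dropped Snhg11, 0.48 with a Xist term and 0.41 in the libraries with Xist. Higher polymerase I genes numbered 1 with RLE, 4 with library size alone and 1 without a filter (Ubtf adjusted p = 0.0633), and lower snoRNA-particle genes numbered 1 with library size alone. Replicate numbers did not pair the samples (r of same-numbered samples −0.464, 0.337, −0.0561 and 0.271, with 1 of 4 YY1 KO libraries closest to its own number). With the number as a block, the hosts' median was 0.50, and calls were 3 other non-coding hosts higher (Snhg14 adjusted p = 0.0647, Snhg7 0.0774), 23 coding hosts lower and 1 polymerase I gene higher.

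In the 4 libraries with Y-linked reads, calls were 1730 genes higher in all, 1 other non-coding host lower (Rian), 17 coding hosts higher and 20 lower, 3 particle genes higher, 1 decay gene lower, 4 trimming genes higher and 1 lower, 1 polymerase I gene higher and 1 neighbour higher. Snhg6 was at −0.44 and Gas5 at −0.36 there. In the 4 libraries with Xist 0 genes were called in edgeR or limma-voom, in any list, although 3451 had an unadjusted p under 0.05 and DESeq2 called 1328. Of the 10 hosts 4 had an unadjusted p under 0.05 there and DESeq2 called 2. Snhg6 was at −0.020 and Gas5 at −0.065 there, and Rcc1 changed sign (0.073, adjusted p = 0.899). Coding hosts of named snoRNAs alone gave 9 higher and 16 lower. The snoRNA sum without its 3 largest rows differed by −2.16 CPM. The causes of these shifts were not tested.

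Leaving out each library gave 2192 to 2905 genes higher and 1668 to 2439 lower, 4 to 5 hosts higher, and a host median of 0.31 (without YY1 KO 2) to 0.63. It gave 4 to 5 other non-coding hosts higher, 29 to 40 coding hosts higher and 21 to 45 lower, 1 to 2 neighbours higher, 4 to 6 particle genes higher and 1 to 4 lower, and 4 to 5 decay genes higher and 3 to 5 lower. Trimming genes were 5 to 6 higher and 3 to 4 lower, and polymerase I genes 1 to 2 higher and 1 to 2 lower. Snhg11 ran from −0.091 to 1.3, and the snoRNA difference from −5.76 to −4.95 CPM. Depth limits Snhg10 and Snhg11. The hosted guide RNAs are limited by few reads and by the selection of polyadenylated RNA.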

Other observations

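Coding hosts of snoRNAs with a Snord, Snora or Scarna name were set apart after the data were seen, because the larger list of coding hosts also holds hosts of predicted snoRNAs alone. Of 63 tested 9 rose and 16 fell, which is 14.3 and 25.4% beside 21.6 and 17.3% of all genes, with a median log2 fold change of −0.054. Of these hosts 24 encode ribosomal proteins, and among them 1 rose and 6 fell, with a median of −0.10. The gene that rose was Rpl39, and it and the 2 genes given here among those that fell were named after their values were seen. Rpl23a, which holds Snord42a, Snord42b and Snord4a, stood at 154, 122, 141 and 183 CPM in YY1 KO mice 1 to 4, against 238, 229, 210 and 232 CPM in control mice 1 to 4 (log2 fold change −0.60 ± 0.12, edgeR adjusted p = 0.00551). Rps13, the host of Snord14a, stood at 91.0 ± 9.59 CPM in YY1 KO hearts and 134 ± 11.1 CPM in control hearts (SD, n = 4 each; −0.56 ± 0.10, adjusted p = 0.00302). Rpl39, the host of Snora69, stood at 69.0 ± 9.55 CPM in YY1 KO hearts and 50.7 ± 4.47 CPM in control hearts (0.45 ± 0.11, adjusted p = 0.0137). For Rpl23a and Rps13 YY1 KO 4 was the highest YY1 KO heart, as it was for Gas5 and Snhg1.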
